A study of Mus musculus with 4 samples.

Results

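Nucleophosmin (Npm1) and the RNA-binding proteins HuR (Elavl1) and KSRP (Khsrp), which the title of the series joins in 1 mechanism, were followed clone by clone in the mouse myoblast cell line C2C12. All clones of these 3 genes were taken by gene ID, symbol or older symbol. They numbered 5 of 16814 clones: 2 for Npm1, 2 for Elavl1 and 1 for Khsrp. Proliferating cells were transfected with siRNA against HuR (2 arrays) or with a control siRNA (2 arrays), both in medium with 20% fetal bovine serum, and their RNA was labelled with 33P and hybridised to arrays of spotted cDNA clones with 1 signal per spot. No label states if the 2 arrays per siRNA stem from different cultures, and p-values therefore reflect no more than array-to-array spread, possibly technical.

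HuR binds AU-rich and U-rich stretches of mRNAs and is best known for protecting its targets from decay. KSRP also binds AU-rich elements, through KH domains, and brings deadenylases and the exosome to the mRNA. In myoblasts both proteins are known to act on mRNAs of muscle differentiation such as those of MyoD, myogenin and p21. Nucleophosmin is an abundant nucleolar chaperone of ribosome assembly that also binds histones and the tumour suppressor ARF. The comparison addresses whether the Npm1 mRNA differs when HuR is targeted, and whether the mRNAs of HuR and KSRP themselves do.

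Values are z-scores as deposited. The arrays have 2 sections of 8448 spots, and within each section the mean is 0 and the SD is 1, which makes 1 z unit equal to 1 section SD and allows no fold change. Of the myoblast markers looked up, 2 of 10 had a named clone. The intermediate filament gene Vim, which fibroblasts also express, was at 0.62 and 0.64 with HuR siRNA, against 0.57 and 0.64 with control siRNA. The myogenic repressor gene Msc was at -0.13 and -0.13 with HuR siRNA, against -0.08 and -0.08 with control siRNA. No named clone was found for Myod1, Myf5, Pax7, Des or Cdh15, so the myoblast label could not be checked on the genes that define it. Clones for markers of fibroblasts (7 of 8 genes, 12 clones), adipocytes (1 of 6), blood and endothelium (2 of 9), nerve (2 of 6) and bone and cartilage (2 of 5) had 0 calls at an adjusted p under 0.05. The same held for all 16814 clones (0.0% called), so the count is not particular to these markers. The part of these clones in the results was not tested. Their median differences, HuR siRNA minus control siRNA, were -0.0075, 0.02, -0.1825, 0.0225 and -0.09 z units, against 0 over all clones. Levels varied between clones of a gene. Means with HuR siRNA ran from -0.69 to 2.075 over the Col3a1 clones (fibroblast) and from -0.74 to 1.555 over the Lpl clones (adipocyte). Some of these lay above Vim. The calls concern differences between the groups, and whether such cells were present was not tested.

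Npm1 was higher with HuR siRNA on both arrays and for both of its clones. The first clone (BG074521) had z-scores of 0.15 and 0.23 with HuR siRNA, against -0.06 and 0.03 with control siRNA. The second clone (BG074522) had 0.23 and 0.4 with HuR siRNA, against -0.07 and 0.04 with control siRNA. The groups did not overlap on either clone, a separation in the higher direction that 13.9% of all clones showed. A difference above 0, with or without overlap, was found for 49.6% of all clones and one below 0 for 46.9%. The deposited table places Npm1 (gene ID 18148) on chromosome 11.

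The first Npm1 clone averaged 0.19 ± 0.057 over the HuR siRNA arrays and -0.015 ± 0.064 over the control siRNA arrays (SD, n = 2 each), which is a difference of 0.205 z units with an SE of 0.057 and a 95% interval of 0.052 to 0.358. The second averaged 0.315 ± 0.12 over the HuR siRNA arrays and -0.015 ± 0.078 over the control siRNA arrays (SD, n = 2 each), and it differed by 0.33 with an SE of 0.079 and an interval of 0.117 to 0.543. Each difference was larger than the SD within its groups, but neither passed limma's test over all clones (adjusted p = 0.99 for each, with an unadjusted limma p of 0.0195 for the first clone and 0.0119 for the second). Among the clones of the array 1.81% had a larger positive difference than the first clone and 0.963% a larger one than the second. Counted in either direction, 4.13% had a difference at least as large as that of the first clone and 1.99% as that of the second.

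At that threshold limma called 0 of 16814 clones (0.0%), and 665 (3.96%) had an unadjusted p under 0.05, 277 of them higher (1.65%) and 388 lower (2.31%). Each of the 2 Npm1 clones thus belongs to the 1.65% of clones with an unadjusted limma p under 0.05 and a higher value. Over all clones the median absolute difference between the groups was 0.04 z units, and the median absolute gap between the arrays of 1 group was 0.06 with HuR siRNA and 0.06 with control siRNA. An exact permutation test of 2 against 2 arrays cannot give a p below 0.333.

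**Figure D1:**
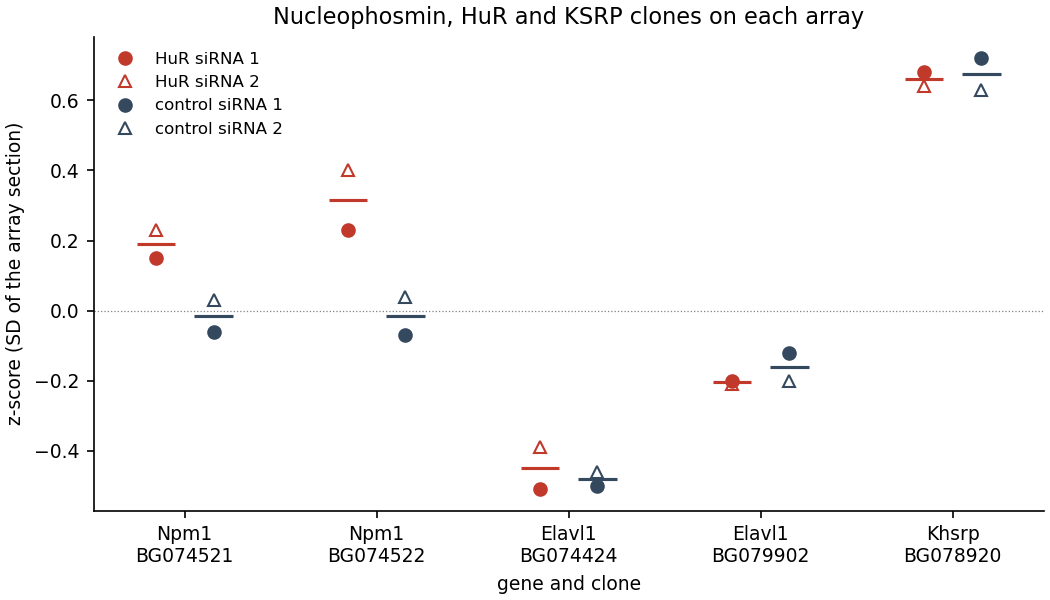
The z-score (y axis, in SD of the array section) of each Npm1, Elavl1 and Khsrp clone (x axis) is plotted for HuR siRNA (red, left) and control siRNA (blue, right), with circles for replicate 1, open triangles for replicate 2 and bars for the means of 2 arrays. Both Npm1 clones lie above 0.1 with HuR siRNA and below 0.05 with control siRNA, while the groups of the Elavl1 and Khsrp clones overlap.

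The 2 Npm1 clones moved together from array to array. The mean of both was 0.19 and 0.315 with HuR siRNA, against -0.065 and 0.035 with control siRNA, a difference of 0.2675. On the control arrays the clones were alike, the second minus the first being -0.01 and 0.01. On the arrays with HuR siRNA the second clone was higher than the first by 0.08 and 0.17. Subtracting the array of the same number gave 0.21 and 0.2 for the first clone and 0.3 and 0.36 for the second, although the labels do not say that a number marks a pair.

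How often the clones of a gene agreed in this way was counted after the Npm1 values were seen. Of 1354 genes with exactly 2 clones, 46 (3.4%) had both clones higher without overlap between the groups. For 2 of the 1354 (0.148%) both clones also had an unadjusted limma p under 0.05 in the higher direction, and for 0 (0.0%) in the lower direction. These 2 genes were Npm1 and Ankib1, which encodes a ring-finger protein of the ubiquitin ligase type. The Ankib1 clones differed by 0.135 (SE 0.043) and 0.195 (SE 0.039), from spots of different source plates. With grid medians subtracted these values were 0.11 and 0.0825, with an unadjusted limma p of 0.115 and 0.0995 (limma adjusted p = 0.96 each). Both Npm1 clones kept an unadjusted limma p under 0.05 there. The count over the 1354 genes was not repeated under that setting, so how many genes would meet it is not known. Clones that were higher at an unadjusted limma p under 0.05 numbered 408 with grid medians subtracted, against 277 without. After adjustment none of these 4 clones passed (limma adjusted p = 0.99 each). The Npm1 clones, by contrast, came from neighbouring wells.

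The Npm1 clones lay in wells B7 and B8 of source plate 136 and were spotted at the same place of grids 302 and 304 in the second section. Of the other 10 clones of that plate row, 7 were higher and 3 lower with HuR siRNA, with a median difference of 0.0425 and a highest one of 0.08. Bckdha, a subunit gene of the branched-chain keto acid dehydrogenase in the well beside the second Npm1 clone, was at -0.31 and -0.27 with HuR siRNA, against -0.33 and -0.33 with control siRNA. Hnrnpab, an RNA-binding protein gene in well B10, was at 0.25 and 0.23 with HuR siRNA, against 0.16 and 0.17 with control siRNA. Both neighbours thus differed by less than either Npm1 clone, by 0.04 and 0.075. Over the whole plate 58 of 94 other clones were higher and 34 lower, with a median of 0.0175, and 1 of the 94 had a larger difference than the first Npm1 clone and 0 a larger one than the second.

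In grid 302, 12 of 20 other clones were higher with HuR siRNA, with a median difference of 0.0075. In grid 304, 20 of 21 other clones were higher, with a median of 0.05 that ranked 8 among the medians of the 384 grids of the section. Of the grids numbered around it, 303 had a median of 0.03 (rank 48), 305 one of 0.0675 (rank 4) and 306 one of 0.055 (rank 6). The clone with the larger Npm1 difference thus lay in a grid whose other clones were nearly all higher with HuR siRNA as well. With each grid's median subtracted on each array, the second clone still differed by 0.275 (SE 0.064) and the first by 0.205 (SE 0.04), and neither passed (limma adjusted p = 0.96 for each). The differences above those of Npm1 in these grids were those of Cep57 in grid 302 (1.175, at z-scores of -1.57 and -2.47 with HuR siRNA, against -1.9 and -4.49 with control siRNA) and Sgms2 in grid 304 (0.435), both at low levels.

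**Figure D2:**
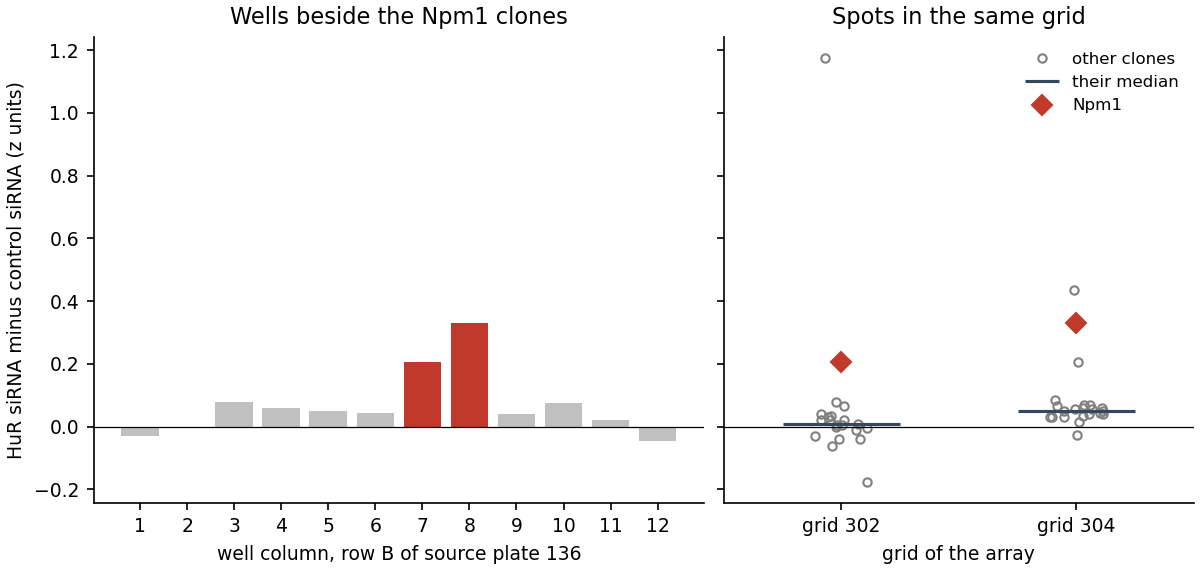
Differences (y axis, HuR siRNA minus control siRNA in z units) are drawn as bars for the 12 wells of row B of source plate 136 (left, Npm1 in red in wells 7 and 8) and as points for the spots of the grids that hold the Npm1 clones (right, Npm1 as red diamonds, other clones as open circles, their median as a line). The Npm1 bars reach 0.205 and 0.33 while the other wells stay at or below 0.08, and the other clones of grid 304 lie mostly above 0, around 0.05.

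Empty spots lay in the same region. All 52 spots described as empty were in the second section, 28 of them in grids 266 to 311, which also hold the Npm1 clones. The range was set after the values were seen, by the first and the last of the 19 empty spots that were positive on every array. Those 19 of the 28 also had a higher mean than either Npm1 clone, whose means over the 4 arrays were 0.0875 and 0.15. Of the 24 empty spots in other grids 0 were above the Npm1 clones. That contrast follows largely from how the range was set, since no empty spot positive on every array can lie outside it. The median difference of the 28 empty spots was 0.0275, with a range of -0.46 to 0.825. What the signal of these spots means for the Npm1 values was not tested.

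Elavl1 (gene ID 15568, chromosome 8 in the deposited table), the gene named as the siRNA target, did not differ beyond the spread between arrays on either clone. The clone listed as Elavl1 (BG079902) had z-scores of -0.2 and -0.21 with HuR siRNA, against -0.12 and -0.2 with control siRNA. Its groups overlapped at 1 shared value, and it differed by -0.045 (SE 0.048, with a 95% interval of -0.174 to 0.084 and a limma adjusted p of 0.99). The other clone (BG074424) was listed under the older symbol 2410055N02Rik, with gene ID 73686 and no chromosome. It had -0.51 and -0.39 with HuR siRNA, against -0.5 and -0.46 with control siRNA. It differed by 0.03 (SE 0.058, with a 95% interval of -0.127 to 0.187 and a limma adjusted p of 0.99), and the groups overlapped.

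The direction thus differed between the 2 Elavl1 clones, one being lower and one higher with HuR siRNA, and neither difference exceeded the spread between arrays. With grid medians subtracted, the clone listed as Elavl1 differed by -0.11 (SE 0.04) and the other by -0.01 (SE 0.05). The unadjusted limma p of the difference of -0.11 was 0.0484, and it did not pass after adjustment over all clones (limma adjusted p = 0.96). On the scores as deposited the lower ends of the intervals were -0.174 z units on the first of these clones and -0.127 on the second. These ends hold for that setting alone and, being in z units, set no bound on a reduction of the mRNA. The mean over the 4 arrays was -0.1825 for the first clone, above the section median of -0.225, and -0.465 for the other, below its section median of -0.16. Of the 24 empty spots outside grids 266 to 311, 2 had a higher mean than this second clone, as did 19 of the 28 inside that range. For the first clone no empty spot exists in its section. On its source plate, plate 46, 67 of 95 other clones were lower with HuR siRNA and 26 higher, with a median of -0.045, equal to the difference of the Elavl1 clone. In its grid the other clones had a median of 0.035. The groups are called here by their labels, and the Elavl1 values do not settle whether the target was lowered, so each difference carries that limit. The deposited table is also titled for siRNA against NPM, while its columns and the sample titles name HuR. What that title refers to was not tested.

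Khsrp (current gene ID 16549, on chromosome 17 in the deposited table) did not differ between the groups beyond the spread of the arrays either. Its only clone (BG078920, listed as 6330409F21Rik with gene ID 70743) had z-scores of 0.68 and 0.64 with HuR siRNA, against 0.72 and 0.63 with control siRNA. The values with HuR siRNA lay between those with control siRNA. It differed by -0.015 (SE 0.052, with a 95% interval of -0.154 to 0.124 and a limma adjusted p of 0.99), and 45 of the 95 other clones of its plate were higher and 44 lower. The Khsrp clone lay 0.6675 above the mean of its section over the 4 arrays, where the section median was -0.225.

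**Figure D3:**
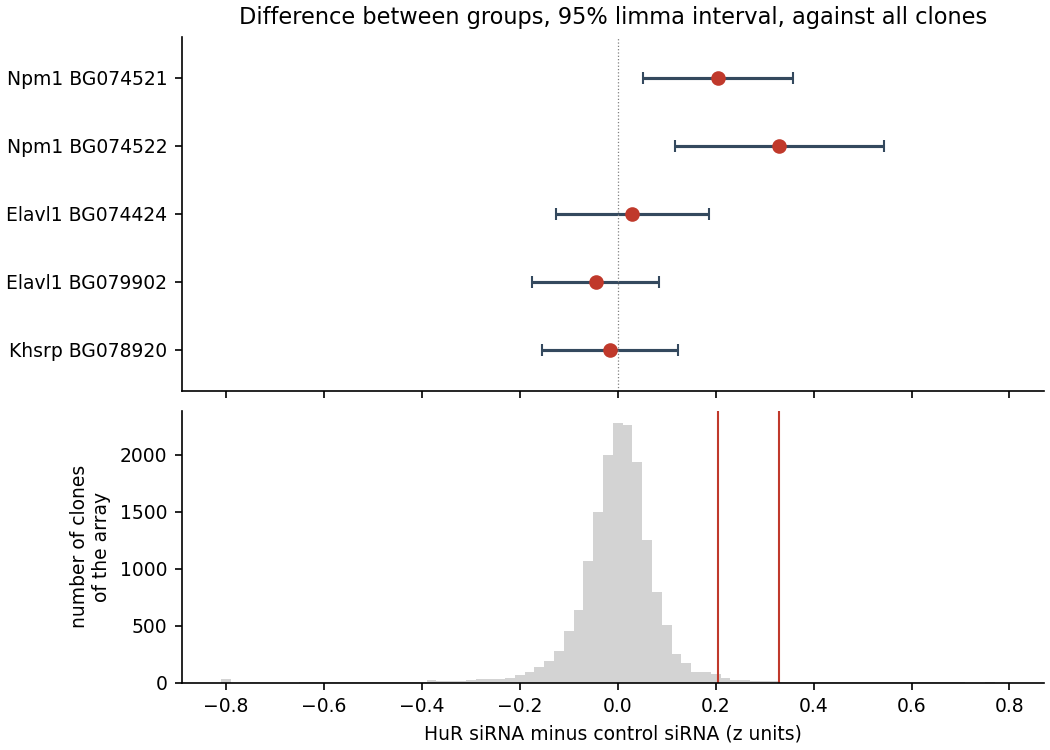
Above, the difference HuR siRNA minus control siRNA (x axis, z units) of each clone is drawn with its 95% limma interval, and below, the number of clones of the array at each difference, with red lines at the 2 Npm1 clones and 78 clones beyond 0.8 in either direction drawn at the edges. The intervals of both Npm1 clones lie above 0 and those of Elavl1 and Khsrp include 0. They are not adjusted for the number of clones, of which 3.96% had an unadjusted limma p under 0.05.

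Clones of relatives of the 3 genes differed by -0.105 to 0.085, and none passed the threshold. Npm3, a nucleoplasmin family member, was at 0.91 and 0.91 with HuR siRNA, against 0.87 and 0.96 with control siRNA, a difference of -0.005 (SE 0.05). The ELAV-like gene Elavl2 had 2 clones, at 0.025 (SE 0.062) and -0.105 (SE 0.126). Of the KSRP relatives that also bind through KH domains, Fubp1 had 3 clones at 0.085 (SE 0.052), -0.025 (SE 0.046) and -0.025 (SE 0.042), and Fubp3 was at -0.015 (SE 0.052). All had a limma adjusted p of 0.99. The first Fubp1 clone (BG064468) was the one of these 7 whose groups did not overlap, with -0.34 and -0.25 with HuR siRNA, against -0.36 and -0.4 with control siRNA. Over all clones 13.9% were apart and higher and 13.7% apart and lower, so 1 of 7 does not stand out. No named clone was found for Npm2, Elavl3 or Elavl4.

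Among nucleophosmin's relatives and nucleolar partners 25 of 30 genes had clones. Of these 47 clones 24 were higher and 22 lower with HuR siRNA, with a median difference of 0.005, against 0 over all clones, and 0 passed the threshold. Surf6, a nucleolar protein gene of ribosome assembly, was at -1.51 and -1.37 with HuR siRNA, against -1.75 and -1.83 with control siRNA, a difference of 0.35 (SE 0.067) at a low level. It was the only clone of the list with an unadjusted limma p under 0.05, which 3.96% of all clones had. Nolc1, a nucleolar phosphoprotein gene, differed by 0.11 (SE 0.042) on 1 clone and by -0.05 and -0.06 on the others, and the nucleolin gene Ncl by 0.13 (SE 0.054) on 1 clone, while the other Ncl clones differed by 0.12, 0.06 and -0.09. The groups were apart for 7 clones that were higher and 6 that were lower, out of 47, against 13.9% and 13.7% of all clones.

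For HuR the list held its relatives, the proteins that carry it out of the nucleus or bind it, and enzymes that modify or cleave it. Of its 22 clones (13 of 19 genes) 14 were higher and 7 lower, with a median of 0.0225 and 0 calls. The groups were apart for 2 of the 22 that were higher and 5 that were lower, against 13.9% and 13.7% of all clones. The export receptor gene Xpo1, which also exports nucleophosmin, was at -0.68 and -0.7 with HuR siRNA, against -0.83 and -0.76 with control siRNA. That difference of 0.105 (SE 0.046) included 1 value equal to the most frequent value of its section, and it was 0.2175 with grid medians subtracted. The kinase gene Mapkapk2 differed by -0.09 (SE 0.047). Set, which encodes a HuR ligand that inhibits protein phosphatase 2A, differed by -0.12 (SE 0.067) on 1 clone and by 0.105, 0.03 and 0.03 on the others.

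For KSRP the list held its relatives, other proteins of AU-rich elements, decay enzymes and microRNA processing enzymes. Of 67 clones (36 of 45 genes) 31 were higher and 35 lower, with a median of -0.005. The groups were apart for 8 in each direction, against 13.9% higher and 13.7% lower of all clones. The deadenylase subunit gene Pan2 was at -3.07 and -2.66 with HuR siRNA, against -2.24 and -2.27 with control siRNA, a difference of -0.61 (SE 0.145) at a very low level. Ywhaz, a 14-3-3 protein gene, differed by -0.15 (SE 0.049) on 1 clone and by -0.1, -0.065 and -0.04 on the others. Pcbp1, a KH-domain protein gene, differed by -0.11 (SE 0.042) at a low level, with means of -1.08 with HuR siRNA and -0.97 with control siRNA. The first clones given of Pan2 and Ywhaz were the 2 of the list with an unadjusted limma p under 0.05, against 3.96% of all clones. After adjustment 0 of the 67 passed.

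Of the mRNAs described as bound by HuR or KSRP, 20 of 30 genes had clones, but Myod1, Myog and Cdkn1a had none. Of the 44 clones 22 were higher and 19 lower, with a median of 0.0025 and 0 calls. An unadjusted limma p under 0.05 was reached by 2 clones that were higher and 4 that were lower, against 1.65% and 2.31% of all clones. The groups were apart for 8 and 11 of the 44, against 13.9% and 13.7% of all clones. The transcription factor gene Jun was at -0.42 and -0.32 with HuR siRNA, against -0.08 and -0.09 with control siRNA, a difference of -0.285 (SE 0.052). That difference was -0.1725 with grid medians subtracted. The beta-actin gene Actb differed by -0.145 (SE 0.041) on 1 clone, while its other clones lay between -0.115 and 0.015. The cyclin A gene Ccna2 differed by 0.155 (SE 0.044) on 1 clone and by -0.05 and 0.015 on the others. The first of these clones was at a low level, with means of -0.8 with HuR siRNA and -0.955 with control siRNA. The highest difference of the list, 0.265 for 1 clone of the cytochrome c gene Cycs, lay between those of the 2 Npm1 clones, and the other Cycs clone differed by 0.11.

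Of the muscle differentiation genes 10 of 35 had clones. Of these 12 clones 5 were higher and 7 lower, with a median of -0.0375 and 0 calls. Acta2, the smooth muscle actin that myoblasts also make, was at 0.41 and 0.2 with HuR siRNA, against -0.07 and -0.2 with control siRNA, a difference of 0.44 (SE 0.093). The fast myosin light chain gene Mylpf differed by 0.125 (SE 0.061). Id2, an inhibitor of MyoD-type factors, differed by -0.09 (SE 0.044) on 1 clone and by -0.02 on the other. The groups were apart for 3 of the 12 clones that were higher and 5 that were lower, against 13.9% and 13.7% of all clones.

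**Figure D4:**
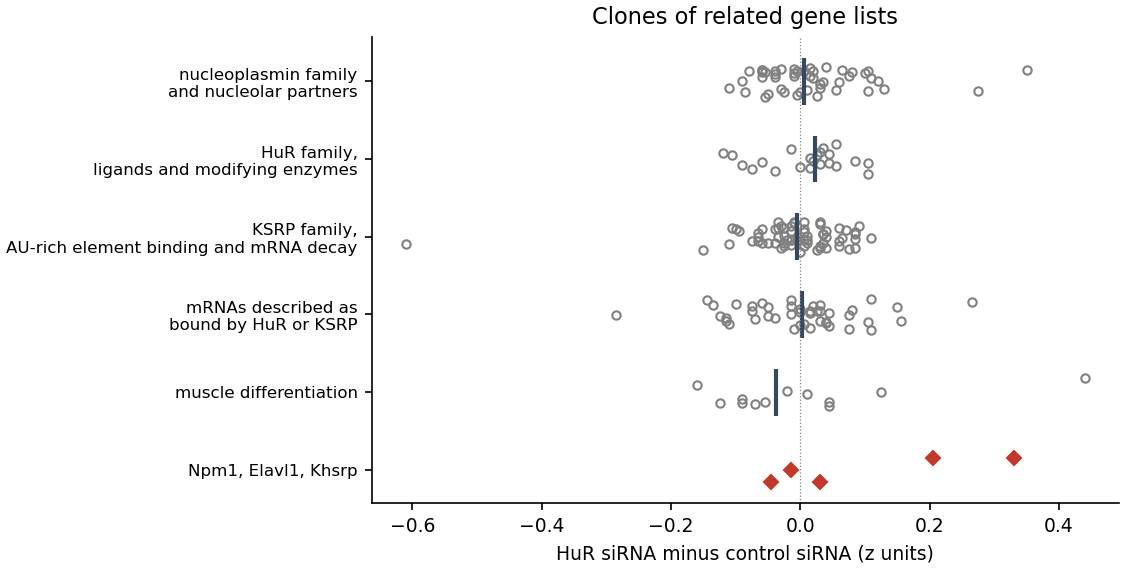
Each open circle is the difference HuR siRNA minus control siRNA (x axis, z units) of 1 clone of a gene list (rows), lines mark the list medians, and red diamonds are the Npm1, Elavl1 and Khsrp clones. The medians lie between -0.0375 and 0.0225, and of the clones in the lists Acta2 (0.44) and Surf6 (0.35) lie above both Npm1 diamonds at 0.205 and 0.33.

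The genes whose pattern over the 4 arrays was most like that of Npm1 were found by the Euclidean distance between values centred on each clone's own mean. For the first Npm1 clone they were Slc52a2, a riboflavin transporter gene (distance 0.0166, r = 0.997), the topoisomerase gene Top3b (0.0218, r = 0.996), the fatty acid-binding protein gene Fabp5 (0.0296, r = 0.992) and Bex3 (0.03, r = 0.997). For the second they were Mgat2, an enzyme gene of N-glycan processing (0.0825, r = 0.978), the ferritin light chain gene Ftl1 (0.0922, r = 0.975), the annexin gene Anxa1 (0.0963, r = 0.965) and Cycs (0.0963, r = 0.965). Each r is over 4 arrays and, since so many clones were searched, describes a match only. These 8 clones differed between the groups by 0.185 to 0.39, and 0 passed. Differences near those of Npm1 follow from how the clones were picked and are no separate result.

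Slc52a2, Top3b and Ftl1, 3 of these 8 clones, came from source plate 23. On that plate 75 of 96 clones were higher with HuR siRNA, with a median difference of 0.0425 that ranked 2 among the medians of 176 plates. The median of plate 136, with Npm1, was 0.02, below that of 31 plates. The 2 Npm1 clones lay at a distance of 0.141 from each other with r = 0.994. At that distance the second clone ranked 730 among all clones for the first, and the first ranked 24 for the second.

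**Figure D5:**
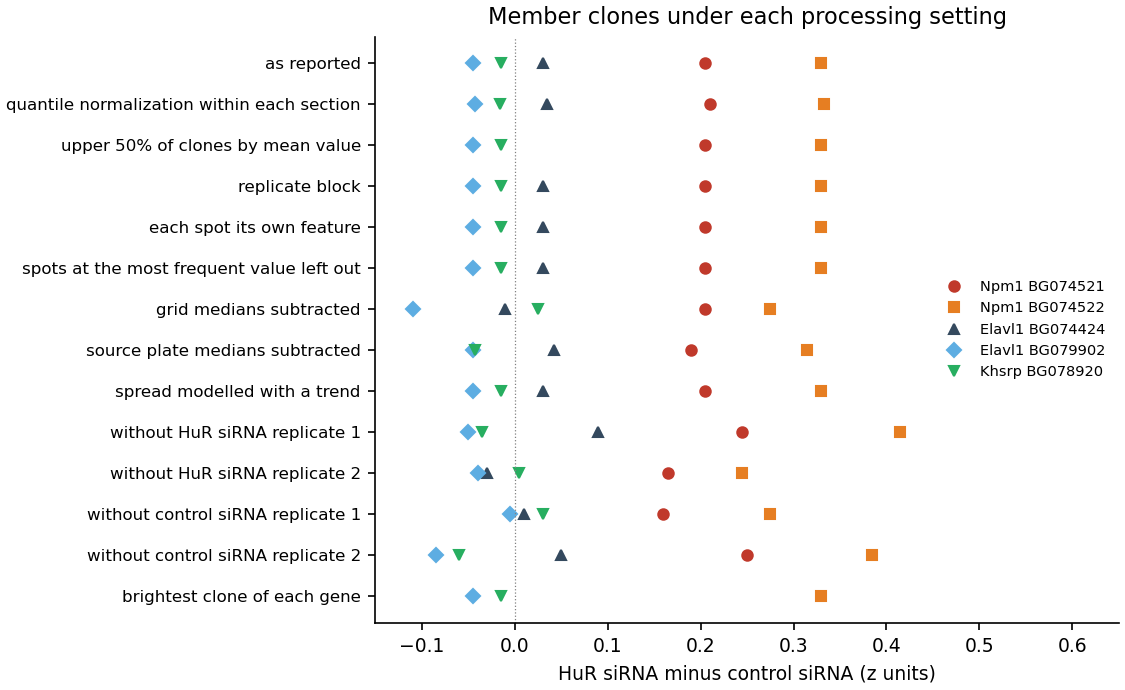
The difference HuR siRNA minus control siRNA (x axis, z units) of each member clone is plotted under each processing setting (rows). The Npm1 clones stay between 0.16 and 0.415 in every row that holds them, and the Elavl1 and Khsrp clones stay between -0.11 and 0.09 on either side of 0.

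Over the settings tried, the first Npm1 clone ranged from 0.16 to 0.25 (limma adjusted p 0.684 to 0.998) and the second from 0.245 to 0.415 (limma adjusted p 0.585 to 0.998). The direction was the same in all of them, leaving out each array in turn included, and neither clone passed in any. The lowest value of the second clone was that without HuR siRNA replicate 2, the array on which both Npm1 clones had their highest value, and the highest was that without HuR siRNA replicate 1.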

How the data were processed

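RNA of 4 C2C12 samples was measured on spotted cDNA arrays, with groups and replicate numbers from the sample titles. The authors deposited z-scores, a score read as such from the values: mean 0 and SD 1 in each section of each array, with 2 decimals. The sources used here name no scanner, background correction, log base or genome build, and no spot intensities were used. The second deposited table held equal values in all 67584 cells. Of 16896 spots, 16820 carried a clone accession, 52 were empty and 24 had no accession; spots of 1 clone were averaged, which left 16814 clones, kept apart. Names came from the table's gene IDs, RefSeq accessions or symbols, updated with the RefSeq gene table of GRCm38.p6 (for names alone). Of the clone spots 56.4% received a current symbol, and 147 with conflicting identifiers were left unnamed.

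The test was limma's (version 3.58.1, R 4.3.3; lmFit and eBayes, two-sided, without a block) on the scores as deposited; p-values were adjusted over all clones by Benjamini-Hochberg, and the threshold was 0.05. On simulated data of 16814 clones with 200 changed per draw, 0.4% of changes of 0.25 z units, 43.4% of 0.5, 89.4% of 1 and 97% of 2 were recovered, with 56 false calls over 10 draws. The simulated noise was independent between clones and held no shifts shared by a grid or source plate. These shares may therefore not hold for the arrays. The number of arrays limits precision: the median half-width of a 95% interval was 0.144 z units. Besides all member clones and family members, the 3 genes of smallest unadjusted p of each list and the 4 nearest to each Npm1 clone were named; other clones named beside these, Ankib1 and the plate and grid neighbours were chosen after their values were seen. The members and lists were chosen with earlier results of these data known. The alternatives were quantile normalization within sections, a filter on low values, the replicate block, other definitions of a feature, removal of the most frequent value, of grid medians and of plate medians, a trend of the spread, and leaving out each array.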

Additional observations from a re-analysis of the deposited data

How the results depend on the processing

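No clone passed the threshold under any setting except quantile normalization within each section, where 1 unnamed clone did (0 to 1 clones over the settings, smallest limma adjusted p 0.032 to 0.936); the cause was not tested. Clones at an unadjusted limma p under 0.05 numbered 517 to 838 elsewhere and 343 among the upper 50% of clones by mean value, where fewer were tested. With the replicate block 0 clones passed and 960 had an unadjusted p under 0.05. Under the block the Npm1 clones differed by 0.205 (SE 0.021) and 0.33 (SE 0.03), with a limma adjusted p of 0.684 each. Deviations from the group means had a correlation of 0.1 between arrays of the same number, and 2 pairs are too few to show that the numbers pair the arrays.

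Subtracting grid medians turned the sign of the second Elavl1 clone (-0.01), of Khsrp (0.025) and of 1 Elavl2 clone (-0.045), and subtracting plate medians that of Npm3 (0.0275). Leaving out 1 array gave ranges that included 0 for that Elavl1 clone (-0.03 to 0.09, lowest without HuR siRNA replicate 2), Khsrp (-0.06 to 0.03, highest without control siRNA replicate 1, and 0.005 without HuR siRNA replicate 2), the Elavl2 clones (-0.045 to 0.095 and -0.28 to 0.07), 1 Fubp1 clone (-0.06 to 0.01), Fubp3 (-0.065 to 0.035) and Npm3 (-0.05 to 0.04). The Elavl1 clone BG079902 ranged from -0.085 to -0.005 (-0.11 with grid medians subtracted) and the Npm1 clones from 0.16 to 0.25 and 0.245 to 0.415. A group left with 1 array is assumed to vary like the other. The weaker Elavl1 clone was not tested among the upper 50% of clones, nor were it and the first Npm1 clone where 1 clone stood for a gene. Among other named clones, leaving out 1 array moved Set (-0.195 to -0.045), Ncl (0.075 to 0.185), Mylpf (0.065 to 0.185), Mapkapk2 (-0.125 to -0.055), Pan2 (-0.815 to -0.405), the first Fubp1 clone (0.04 to 0.13) and Anxa1 and Cycs (0.16 to 0.37 each) by over 1.5 times, as subtracting grid medians did Jun (-0.1725), Xpo1 (0.2175), Actb (-0.0925), Set (-0.0575), Id2 (-0.0575) and 1 Ankib1 clone (0.0825). Of the Elavl1 clones, BG074424 lay below its section median.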
